A study of Mus musculus with 4 samples.

Results

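The RNAs of 39 Wnt pathway genes were compared between precipitates of the translational repressor 4E-T and of control IgG. The members are the genes of the deposited table, out of 35147, whose symbol is on a list of Wnt ligands, secreted inhibitors, receptors, destruction complex proteins and nuclear effectors. The material was the ventricular-subventricular zone (V-SVZ) of mice, the stem cell niche beside the forebrain's lateral ventricles. The protein 4E-T, encoded by Eif4enif1, is a partner of the cap-binding factor eIF4E and sits in P-bodies, which are granules of the cytoplasm that hold RNA and protein. All libraries came from wild-type animals of the CD1 strain, labelled P7/P8 (postnatal days), and held RNA recovered by RNA immunoprecipitation (RIP). The control group had 2 libraries made with anti-IgG and the other group had 2 made with anti-4E-T, and each of the 2 numbered experiments supplied 1 library per antibody. Nothing in the labels states that the experiments used separate animals, so the p-values reflect the spread between these libraries alone, which may be technical. Total RNA of the tissue before precipitation was not analysed here, and in such bulk material fewer cells of a type and less RNA per cell cannot be told apart.

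Wnt ligands are lipid-modified secreted proteins that bind Frizzled receptors together with a co-receptor of the Lrp or Ror family. In the canonical branch, Dishevelled proteins are recruited to the receptor, the destruction complex of Apc, Axin, Gsk3 and casein kinase stops marking β-catenin for degradation, and β-catenin enters the nucleus and binds TCF/LEF factors. In the postnatal V-SVZ, Wnt signalling is known for its part in stem cell self-renewal, precursor proliferation and the making of oligodendrocyte lineage cells.

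The IgG libraries held 14421019 and 24780150 gene reads and the 4E-T libraries 23006357 and 28749439 (replicate 1, then replicate 2, as for every pair of values here). IgG replicate 1 stood apart: it held the lowest FPKM (fragments per kilobase of gene, scaled to library size) of the 4 libraries for 28 of the 35 members tested, and for 62.1% of all 17651 genes tested. IgG replicate 2 held the highest FPKM for 21 of the 35, but for only 5459 of the 17651. For 4E-T replicate 2 these counts were 7 and 7002. The scale of the deposited FPKM differed between libraries, so levels are also given as scaled RPM (reads per 1000000) from reads recovered from the table, with library totals scaled by TMM (trimmed mean of M-values). Defining markers of 10 cell types of the niche and its surroundings (44 genes, none at 0 reads in any library) were all found, those of neural stem cells and astroglia among them. The summed FPKM of the 5 markers of neural stem cells and astroglia was 300 and 788 in IgG and 362 and 565 in 4E-T.

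Among Wnt pathway RNAs, those of the Dishevelled proteins Dvl1 and Dvl2, the TCF factors Tcf7l1 and Tcf7l2, and the β-catenin partner Bcl9 rose in 4E-T precipitates once the experiment number was fitted as a block. Their log2 fold changes lay between 0.77 and 1.04, and both 4E-T libraries stood above both IgG libraries for each of them. Such separation in FPKM was seen for 32.6% of all tested genes. The 5 were picked by this same comparison, so their separation adds no support. No RNA of a ligand, a Frizzled receptor, a co-receptor or a destruction complex protein rose. A count of 5 of 35 tested members is 14.3%, and limma with the block called 17.5% of all tested genes higher (adjusted p under 0.05), so the members' share was not above the background. No member fell in that fit, where 4.44% of all tested genes did.

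Without the block, limma called 0 members higher and 0 lower, against 0.00567% and 0% of all tested genes. At an unadjusted p under 0.05 there were 5 members higher (14.3%, against 11.2% of all tested genes) and 0 lower (against 1.78%), and the lowest adjusted p of a member was 0.254. Same-numbered libraries strayed from their group means in the same genes (correlation 0.672 over the tested genes), and values with the block are given for that reason. Without the block but also without IgG replicate 2, limma called 4 of 35 members higher (Dvl2, Tcf7l1, Tcf7l2 and Bcl9) beside 13.8% of all tested genes, and 0 lower beside 6.2%. In that fit the lone IgG library is assumed to vary as the 4E-T pair does. No member was called with another library left out, but those fits also leave 1 library in a group. Calls over all genes varied widely between them, so the absence of called members is not read as a result. A read-based fit (limma-voom on recovered reads, with the block) called the same 5 members higher and 4 lower, Gsk3b, Wls, Lgr4 and Wnt5a. In that fit 13.6% of all tested genes were higher and 11% lower, beside 14.3% and 11.4% of the members. After quantile normalization, limma with the block called 3 of the 5 higher (Bcl9, Dvl1 and Tcf7l2) and 5 members lower (Gsk3b, Wls, Ctnnb1, Dkk3 and Fzd3), against 10.4% and 9.23% of all tested genes. In the authors' deposited table the same 5 members were higher at an adjusted p under 0.05 and 0 were lower, which is 12.8% of 39 beside 10.7% of all genes with such a value there.

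The median log2 fold change of the tested members was 0.13 on FPKM, beside 0.18 for all tested genes. Scaling moved both medians: they were -0.07 and -0.02 after quantile normalization, and -0.15 and -0.06 in the read-based fit. Directions of members with small differences are therefore to be read against the median of all genes. Both 4E-T libraries stood above both IgG libraries in FPKM for 8 members (22.9%, against 32.6% of all tested genes) and below them for 2 (5.71%, against 8.13%). In scaled reads the counts were 8 higher (22.9%, against 26.1%) and 7 lower (20%, against 22.7%).

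**Figure D1:**
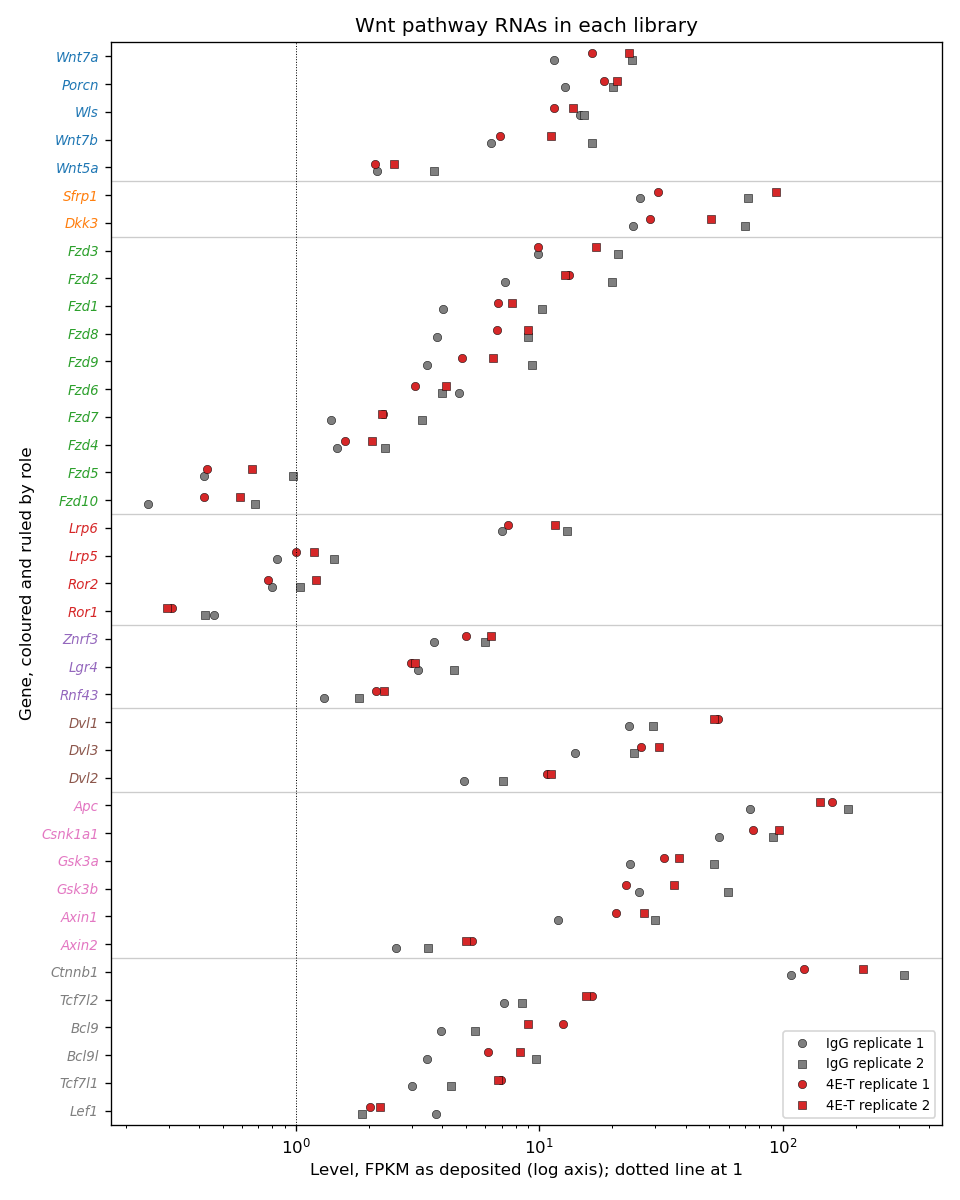
Level of each of the 39 Wnt pathway RNAs in the 2 IgG and 2 4E-T libraries, as deposited FPKM on a log axis, grouped by role, with 1 point per library. Ctnnb1, Apc and Csnk1a1 lie highest, Ror1, Fzd10, Fzd5 and Ror2 lie below a mean of 1, and IgG replicate 1 is the lowest point for 28 of the 35 members tested.

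Of the ligands and their secretion machinery, none of the 5 genes passed the FPKM fit with the block. In the read-based fit 2 of the 5 fell, beside 11% of all tested genes. Wnt7a, a ligand made in the forebrain, had 11.5 and 24.0 FPKM in IgG and 16.5 and 23.3 in 4E-T, so the groups overlapped. Wnt7b, its close relative, had 6.32 and 16.5 FPKM in IgG and 6.89 and 11.2 in 4E-T. In the read-based fit Wnt7b just missed the threshold, with a log2 fold change of -0.52 (limma adjusted p = 0.0517). Porcn, the acyltransferase that attaches the lipid to Wnt proteins, had 12.7 and 20.1 FPKM in IgG and 18.5 and 20.9 in 4E-T. These 3 genes show the pattern common to most members: a low value in IgG replicate 1, and a value in IgG replicate 2 near or above the 4E-T libraries.

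Wls, the carrier that brings lipid-modified Wnt proteins to the cell surface (3:159839650-159938666, RefSeq GRCm38.p6, as for every gene position here), had 14.8 and 15.3 FPKM in IgG and 11.6 and 13.7 in 4E-T. In scaled RPM it had 69.3 and 51.4 in IgG and 41.9 and 40.2 in 4E-T, so both 4E-T libraries lay below both IgG libraries on either scale. It fell by 0.54 on the log2 scale in the read-based fit (SE 0.20, limma adjusted p = 0.0347). On FPKM its log2 fold change was -0.24 (limma adjusted p = 0.601 with the block).

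Wnt5a (14:28504543-28527448), a ligand best known for the β-catenin-independent branch, had 2.15 and 3.68 FPKM in IgG and 2.10 and 2.52 in 4E-T. Its scaled RPM were 19.9 and 24.3 in IgG and 15.0 and 14.6 in 4E-T. The groups overlapped in FPKM and did not overlap in scaled reads. Wnt5a fell by 0.58 in the read-based fit (SE 0.22, limma adjusted p = 0.0412), and its FPKM fold change was -0.21 (limma adjusted p = 0.633 with the block), or 0.071 without IgG replicate 2.

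Both secreted inhibitors were among the most abundant members. Sfrp1, a decoy that binds Wnt proteins, had 26.0 and 72.1 FPKM in IgG and 30.7 and 94.2 in 4E-T, and within each group the library of experiment 2 was far higher. The difference of 0.31 on the log2 scale did not pass (SE 0.30, limma adjusted p = 0.535 with the block). Dkk3, a divergent member of the Dickkopf family, had 24.4 and 70.0 FPKM in IgG and 28.6 and 50.8 in 4E-T, with the highest value in IgG replicate 2. Its log2 fold change was -0.12 (limma adjusted p = 0.847 with the block), and -0.49 after quantile normalization (limma adjusted p = 0.0217 with the block).

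None of the 10 Frizzled receptors rose, and none fell on FPKM or in the read-based fit. Fzd5 (mean 0.619 FPKM) and Fzd10 (0.485) lay under the minimum mean of 1 FPKM and were not tested. For the 8 tested, mean levels ran from 1.86 FPKM for Fzd4 to 14.5 for Fzd3, and log2 fold changes from -0.21 for Fzd6 to 0.34 for Fzd8. The precision was limited: with the block, the 95% interval of Fzd8 ran from -0.14 to 0.83 and that of Fzd6 from -0.70 to 0.27. In 7 of the 8 the 4E-T difference in FPKM had opposite signs in the experiments, beside 32% of all tested genes. Fzd8 is among the 7 through a difference of only -0.00012 in experiment 2. In scaled reads the signs were opposite for 5 of the 8, beside 27.2% of all tested genes. Fzd2, one of the better expressed, had 7.20 and 19.9 FPKM in IgG and 13.2 and 12.8 in 4E-T, so both 4E-T libraries fell between the IgG libraries. Fzd3, a receptor needed for axon tract formation, had 9.89 and 21.2 FPKM in IgG and 9.88 and 17.1 in 4E-T. Fzd3 fell by 0.53 after quantile normalization (limma adjusted p = 0.026 with the block), and had a log2 fold change of -0.43 in the read-based fit (limma adjusted p = 0.165).

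Fzd4 and Fzd6 stood lower in both 4E-T libraries than in both IgG libraries in scaled reads, with log2 fold changes of -0.33 and -0.55 in the read-based fit (limma adjusted p = 0.342 and 0.0599). That is 25% of the tested Frizzled genes, beside 22.7% of all tested genes. In FPKM the groups overlapped for both. Fzd4 had 1.47 and 2.33 FPKM in IgG and 1.59 and 2.06 in 4E-T, and Fzd6 had 4.66 and 3.98, then 3.09 and 4.13. Fzd4 is the receptor for norrin in the vasculature. All 5 endothelial markers were found, with a summed FPKM of 111 and 60.0 in IgG and 30.3 and 39.8 in 4E-T, and 3 of the 5 fell with the block. Their part in the Frizzled values was not tested.

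Of the co-receptors, Lrp6 (mean 9.78 FPKM) was far more abundant than Lrp5 (1.11 FPKM), and Ror1 (0.372) and Ror2 (0.953) lay under the minimum. Lrp6, the main co-receptor of the canonical branch, had 7.05 and 12.99 FPKM in IgG and 7.43 and 11.6 in 4E-T, with a log2 fold change of -0.04 (95% interval -0.54 to 0.46 with the block). Lrp5, just inside the minimum, had 0.84 and 1.43 FPKM in IgG and 0.999 and 1.19 in 4E-T. Ror1, a receptor for Wnt5a, was covered by 56 and 53 reads in IgG and 42 and 39 reads in 4E-T.

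Of the 3 genes of receptor turnover, 0 passed on FPKM with the block. In the read-based fit 1 of them, Lgr4, fell, beside 11% of all tested genes. Rnf43 and Znrf3, ubiquitin ligases that remove Frizzled from the cell surface, did not pass on either scale. Rnf43 had 1.31 and 1.82 FPKM in IgG and 2.14 and 2.31 in 4E-T without overlap (log2 fold change 0.34, limma adjusted p = 0.424 with the block). Znrf3 had 3.68 and 6.01 FPKM in IgG and 4.99 and 6.35 in 4E-T. Lgr4 (2:109917647-110014257), the R-spondin receptor that holds those ligases in check, had 3.17 and 4.48 FPKM in IgG and 2.97 and 3.10 in 4E-T. In scaled RPM Lgr4 had 21.2 and 21.4 in IgG and 15.3 and 12.9 in 4E-T, so the groups were apart on both scales. It fell by 0.60 in the read-based fit (SE 0.23, limma adjusted p = 0.0357), while its FPKM fold change was -0.25 (limma adjusted p = 0.557 with the block), or -0.049 without IgG replicate 2.

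All 3 Dishevelled RNAs stood higher in both 4E-T libraries than in both IgG libraries, and 2 of the 3 rose with the block. Of all tested genes, 32.6% stood higher in this way on FPKM and 17.5% rose with the block. Whether so small a group differs from these shares was not tested. Dishevelled proteins carry the signal from Frizzled to the Axin complex and also serve the planar cell polarity branch. Dvl1 (4:155847402-155859303) had 23.5 and 29.4 FPKM in IgG and 54.2 and 52.5 in 4E-T, a mean of 26.5 ± 4.21 against 53.3 ± 1.18 (SD, n = 2 libraries per group). The 4E-T libraries agreed closely and lay far above both IgG libraries. Dvl1 rose by 0.99 on the log2 scale (SE 0.30, limma adjusted p = 0.00659 with the block, 0.372 without it), or 0.74 in the read-based fit (limma adjusted p = 0.0115) and 0.60 after quantile normalization (limma adjusted p = 0.00594 with the block). Within experiments the FPKM difference was 1.17 in experiment 1 and 0.81 in experiment 2.

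Dvl2 (11:70000592-70010109) had 4.90 and 7.08 FPKM in IgG and 10.8 and 11.2 in 4E-T, a mean of 5.99 ± 1.55 against 11.0 ± 0.268. Again no IgG library reached the 4E-T level. Dvl2 rose by 0.80 (SE 0.25, limma adjusted p = 0.0113 with the block, 0.364 without it). The difference was 1.002 in experiment 1 and 0.59 in experiment 2. After quantile normalization Dvl2 no longer passed, with a log2 fold change of 0.50 (limma adjusted p = 0.0964 with the block).

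Dvl3 (16:20516949-20534013), the most abundant of the 3 after Dvl1, had 14.1 and 24.5 FPKM in IgG and 26.1 and 31.0 in 4E-T. The gap between its groups was small beside the distance between the IgG libraries. Its log2 fold change of 0.59 did not pass (SE 0.29, limma adjusted p = 0.129 with the block). The value was 0.21 without IgG replicate 1, 0.97 without IgG replicate 2, and 0.19 after quantile normalization. No difference between the Dishevelled genes themselves was tested.

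**Figure D2:**
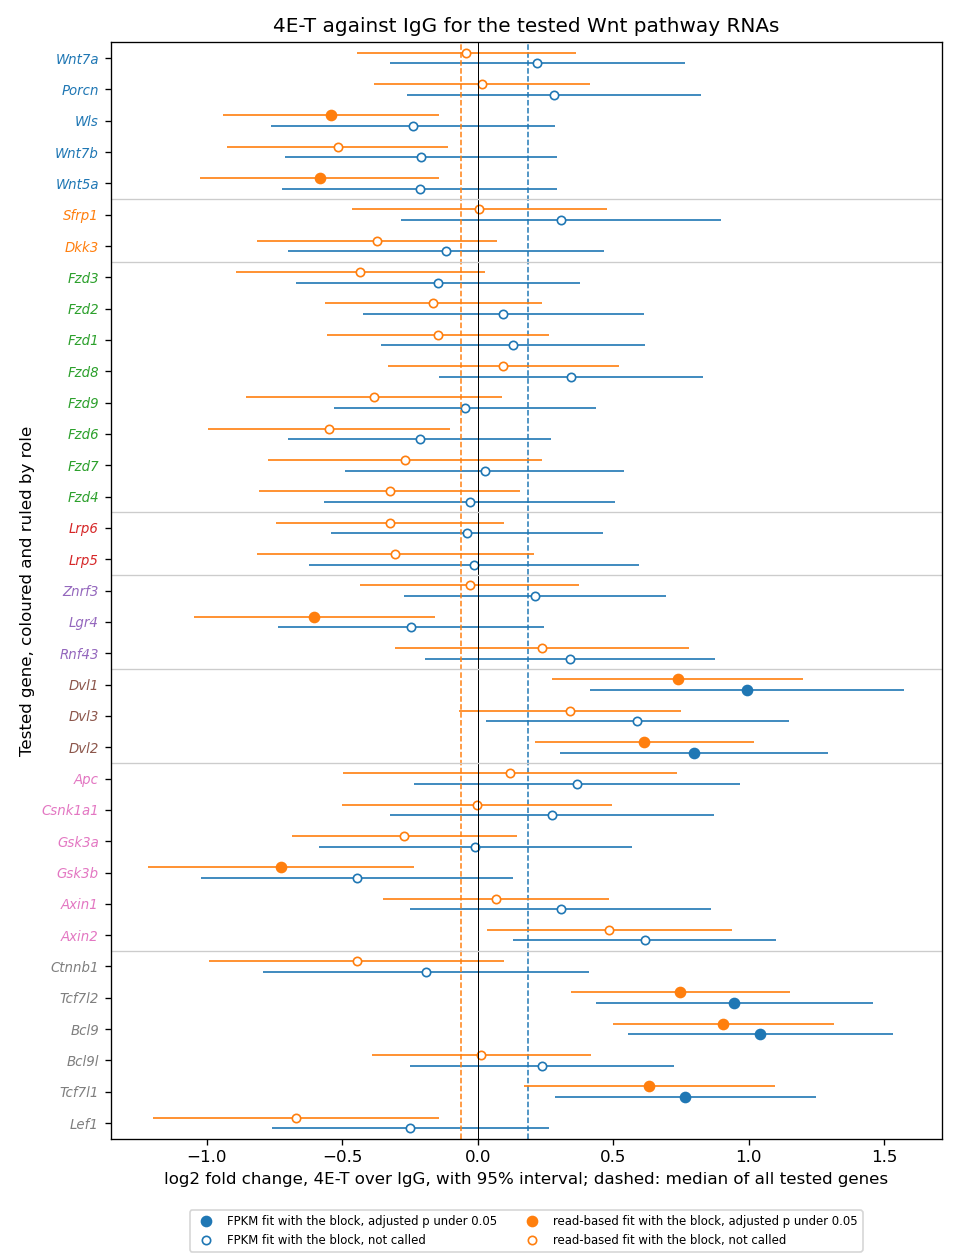
Log2 fold change of 4E-T over IgG with its 95% interval for the 35 tested Wnt pathway RNAs, by role, from the FPKM fit with the block (blue) and from the blocked read-based fit (orange), filled where the adjusted p is under 0.05 and open otherwise. The filled points to the right are Dvl1, Dvl2, Tcf7l1, Tcf7l2 and Bcl9 in both fits; Gsk3b, Wls, Lgr4 and Wnt5a are filled to the left in the read-based fit alone, and the dashed lines mark the median of all tested genes.

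None of the 6 destruction complex RNAs rose or fell on FPKM with the block, although some of the most abundant members belong to this group. Apc, the scaffold that binds β-catenin in the complex, had 73.1 and 186 FPKM in IgG and 159 and 143 in 4E-T. Its within-experiment differences had opposite signs, 1.11 in experiment 1 and -0.38 in experiment 2. Csnk1a1, the casein kinase that primes β-catenin for degradation, had 54.9 and 90.9 FPKM in IgG and 75.5 and 97.0 in 4E-T. Axin1, the other scaffold, had 11.9 and 29.9 FPKM in IgG and 20.7 and 27.1 in 4E-T, also with opposite signs (0.75 and -0.14).

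Axin2 (11:108917828-108950783) is a feedback inhibitor whose gene is itself a target of β-catenin. Of the members not called on FPKM with the block, it came nearest to the threshold in that fit. It had 2.58 and 3.50 FPKM in IgG and 5.31 and 4.996 in 4E-T, so the groups did not overlap. With a log2 fold change of 0.62 it just missed (SE 0.25, limma adjusted p = 0.0565 with the block), and its differences were 0.82 and 0.41 in the experiments. It was further from the threshold in the read-based fit (0.49, limma adjusted p = 0.107). After quantile normalization it had 0.52 (limma adjusted p = 0.254 with the block). The authors' deposited table gave Axin2 an adjusted p of 0.0996.

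Gsk3b (16:38089001-38246084), a kinase that marks β-catenin for degradation, moved the other way. It had 25.8 and 59.4 FPKM in IgG and 22.7 and 35.9 in 4E-T, where IgG replicate 1 overlapped the 4E-T values. In scaled RPM it had 283 and 465 in IgG and 192 and 245 in 4E-T, without overlap. Gsk3b fell by 0.73 in the read-based fit (SE 0.25, limma adjusted p = 0.0200) and by 0.83 after quantile normalization (limma adjusted p = 0.000494 with the block). On FPKM it had a log2 fold change of -0.45 (SE 0.29, limma adjusted p = 0.302 with the block), which was 0.14 without IgG replicate 2. Its paralog Gsk3a had 23.6 and 52.1 FPKM in IgG and 32.5 and 37.6 in 4E-T, with a log2 fold change of -0.01 (95% interval -0.59 to 0.57 with the block).

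Of the 6 nuclear effectors, 3 rose with the block, beside 17.5% of all tested genes, and a difference from that share was not tested. Ctnnb1 (9:120933400-120960507), which encodes β-catenin, did not, although it was the most abundant member. It had 108 and 316 FPKM in IgG and 122 and 214 in 4E-T, with the libraries of experiment 2 high in both groups. Its FPKM differed by -0.19 on the log2 scale (SE 0.31, limma adjusted p = 0.737 with the block), and the differences were 0.18 and -0.56 in the experiments. Ctnnb1 fell by 0.49 after quantile normalization (limma adjusted p = 0.0337 with the block), and its log2 fold change in the read-based fit was -0.45 (limma adjusted p = 0.236).

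Bcl9 (3:97203658-97298402), a coactivator that ties β-catenin to Pygopus proteins, had the largest FPKM change of the tested members. It had 3.95 and 5.43 FPKM in IgG and 12.5 and 8.98 in 4E-T, a mean of 4.69 ± 1.05 against 10.8 ± 2.51. Both 4E-T libraries were above both IgG libraries, and 4E-T replicate 1 was the highest. Bcl9 rose by 1.04 (SE 0.25, limma adjusted p = 0.000502 with the block, 0.254 without it), with 1.45 in experiment 1 and 0.63 in experiment 2. Its paralog Bcl9l had 3.46 and 9.74 FPKM in IgG and 6.14 and 8.30 in 4E-T, with a log2 fold change of 0.24 (95% interval -0.25 to 0.72 with the block).

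Tcf7l2 (19:55741797-55933659), a β-catenin-binding transcription factor with a known role in oligodendrocyte maturation, had 7.20 and 8.48 FPKM in IgG and 16.4 and 15.6 in 4E-T. Replicates of each group agreed closely and the groups were far apart. Tcf7l2 rose by 0.95 (SE 0.26, limma adjusted p = 0.003 with the block, 0.301 without it), with 1.09 in experiment 1 and 0.81 in experiment 2, and by 0.57 after quantile normalization (limma adjusted p = 0.0243 with the block). Of the 6 oligodendrocyte lineage markers, all found, 2 rose with the block (Olig2 and Sox10), and their summed FPKM was 324 and 831 in IgG and 441 and 568 in 4E-T. The 4 markers of transit-amplifying precursors, all found, summed to 32.2 and 51.8 FPKM in IgG and 95.9 and 73.2 in 4E-T, and 2 of them rose (Mki67 and Gsx2). Of the 4 striatal neuron markers, all found, 2 rose (Penk and Drd1), and their summed FPKM was 213 and 579 in IgG and 389 and 892 in 4E-T. Of the 4 neuroblast markers, all found, 1 rose (Dlx2), with sums of 181 and 370 in IgG and 262 and 289 in 4E-T. The part of any of these cell types in the values of the 5 members that rose was not tested.

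Tcf7l1 (6:72626371-72789045), a family member that mostly represses target genes, had 3.005 and 4.34 FPKM in IgG and 6.97 and 6.77 in 4E-T, without overlap. Tcf7l1 rose by 0.77 (SE 0.25, limma adjusted p = 0.0129 with the block, 0.344 without it), with 0.99 and 0.54 in the experiments. It missed the threshold after quantile normalization, where the log2 fold change was 0.61 (limma adjusted p = 0.131 with the block). Lef1, the remaining TCF/LEF factor of the list, had 3.77 and 1.86 FPKM in IgG and 2.01 and 2.21 in 4E-T. Its high value was in IgG replicate 1, the library in which the summed endothelial markers were also highest, and its log2 fold change was -0.25 (limma adjusted p = 0.569 with the block). In the read-based fit Lef1 had -0.67 and just missed the threshold (limma adjusted p = 0.0514). Its differences in scaled reads were -1.28 in experiment 1 and 0.05 in experiment 2. The part of endothelial cells in the Lef1 value was not tested.

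Within experiments, the 5 members that rose were higher in 4E-T in both, which largely follows from how they were picked. In each of the 5 the difference was larger in experiment 1. Over all 35 tested members the FPKM difference was above 0 for 28 in experiment 1 and for 14 in experiment 2. It was above 0 in both experiments for 12 members (49.4% of all tested genes), below 0 in both for 5 (18.5% of all) and of opposite sign for 18 (32% of all), of which 16 were higher in experiment 1 and lower in experiment 2. The median difference of the members was 0.44 in experiment 1 and -0.14 in experiment 2, beside 0.32 and 0.08 for all tested genes. In scaled reads, 8 members were above 0 in both experiments (33.9% of all tested genes), 12 were below 0 in both (38.9% of all) and 15 were of opposite sign (27.2% of all).

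**Figure D3:**
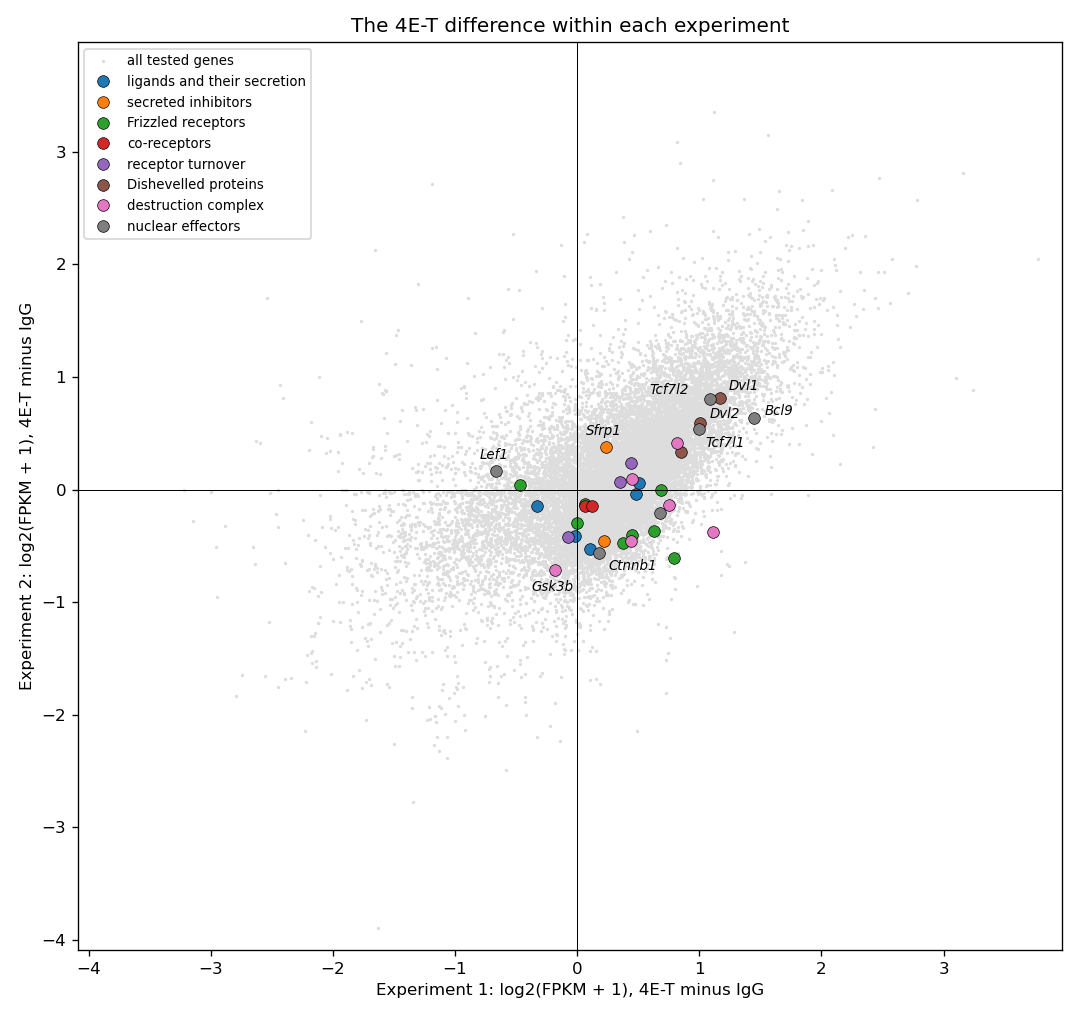
Difference of log2(FPKM + 1) between 4E-T and IgG in experiment 1 (horizontal) and experiment 2 (vertical), with the 35 tested Wnt pathway RNAs coloured by role over all tested genes in grey. Dvl1, Dvl2, Tcf7l1, Tcf7l2 and Bcl9 lie in the upper right quadrant, while 16 members lie at the lower right, higher in experiment 1 and lower in experiment 2.

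Without strand information for the counting, reads from overlapping genes cannot be told apart. RefSeq gives overlaps of Tas1r3 with Dvl1, 4 non-coding genes or pseudogenes on Tcf7l1 and 1 long non-coding RNA on Tcf7l2. A long non-coding RNA and a small nucleolar RNA overlap Gsk3b. There are 3 non-coding genes or pseudogenes on Wls, 2 pseudogenes on Fzd3 and a microRNA on Ctnnb1. Of the other pathway genes, Tle2 overlaps Tle6, and Adgra2 overlaps Brf2 and a long non-coding RNA. Rspo1, Kremen1, Tspan12, Daam1 and Daam2 overlap non-coding genes or pseudogenes. The values of all these genes carry that uncertainty. No annotated gene overlaps Bcl9 or Dvl2.

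Promoter sequences are shown for genes whose RNAs moved together and for 1 whose RNA moved the other way. RefSeq (GRCm38.p6) gave 29 upstream windows of 250 bases for 23 of the 39 members. Shown are the windows of 3 members that rose in every blocked fit, and that of Gsk3b. They were chosen after their values were seen, and of a gene's windows the one with the most GC boxes was taken. Each runs 5′ to 3′ on the gene's strand. Capitals mark GC boxes (GGGCGG or its complement CCGCCC, overlapping matches joined) and the TCF/LEF core (CTTTGA or its complement TCAAAG), which do not overlap each other.
Bcl9, chr3:97227365-97227614, minus strand: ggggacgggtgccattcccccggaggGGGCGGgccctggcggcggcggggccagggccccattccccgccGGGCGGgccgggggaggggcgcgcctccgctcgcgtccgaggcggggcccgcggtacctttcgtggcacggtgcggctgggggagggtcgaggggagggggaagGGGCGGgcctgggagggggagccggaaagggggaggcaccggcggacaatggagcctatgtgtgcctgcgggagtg
Dvl1, chr4:155847152-155847401, plus strand: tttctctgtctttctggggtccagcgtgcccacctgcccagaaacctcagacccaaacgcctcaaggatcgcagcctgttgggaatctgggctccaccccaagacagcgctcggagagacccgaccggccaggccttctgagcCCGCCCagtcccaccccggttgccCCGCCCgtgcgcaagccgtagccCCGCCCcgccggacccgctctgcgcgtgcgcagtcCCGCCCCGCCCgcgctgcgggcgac
Tcf7l2, chr19:55741560-55741809, plus strand: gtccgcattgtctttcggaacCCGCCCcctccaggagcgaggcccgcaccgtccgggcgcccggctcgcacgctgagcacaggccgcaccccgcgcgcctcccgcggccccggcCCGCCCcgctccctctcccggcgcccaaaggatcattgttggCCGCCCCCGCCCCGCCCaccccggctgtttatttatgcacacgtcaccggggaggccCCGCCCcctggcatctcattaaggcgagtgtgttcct
Gsk3b, chr16:38088751-38089000, plus strand: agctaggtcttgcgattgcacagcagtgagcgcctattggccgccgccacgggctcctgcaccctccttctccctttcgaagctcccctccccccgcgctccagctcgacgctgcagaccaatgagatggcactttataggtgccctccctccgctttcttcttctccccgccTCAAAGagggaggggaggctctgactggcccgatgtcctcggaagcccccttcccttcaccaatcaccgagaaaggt

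The Bcl9 window, which belongs to a start site inside the annotated gene, held 3 GC boxes and that of Dvl1 held 5. The Tcf7l2 window shown held 6, but another window of Tcf7l2 (chr19:55895071-55895320) held 0. The Gsk3b window held 0 GC boxes and 1 TCF/LEF core. A GC box was found in 75.9% of the 29 windows of members, in 5 of the 6 windows of members that rose, and in 32.7% of 32851 windows of all genes. The members' windows were also richer in G and C, with a median of 66.4% against 52.4% for all windows. GC boxes were as frequent in some members that did not pass, such as Wnt7a with 6 and Fzd4 with 7, and in Fzd5, which was not tested, with 9. The TCF/LEF core was found in 5 of the 29 windows of members (17.2%, against 13.8% of all windows) and in 0 of the 6 of members that rose. A match describes these letters only, and RIP does not measure promoter activity.

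Other genes of the pathway were taken from lists of 83 genes, of which 60 were tested. With the block 9 of them rose (15%, against the 17.5% of all tested genes) and 0 fell; without it limma called 0 in either direction, with 5 genes higher (against 11.2% of all tested genes) and 0 genes lower (against 1.78%) where an unadjusted p under 0.05 was used. The read-based fit called 7 higher and 7 lower, 11.7% in each direction, beside 13.6% higher and 11% lower of all tested genes. Most of the other ligands and agonists were scarce: 7 of 21 reached the minimum level, and 0 of the 7 rose. By group, 2 of 4 tested secreted inhibitors rose, 0 of 8 receptors, 1 of 17 cytoplasmic regulators, 2 of 10 nuclear effectors and 3 of 9 planar cell polarity genes.

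Sfrp4, a secreted Wnt inhibitor, had 1.87 and 1.51 FPKM in IgG and 6.36 and 5.60 in 4E-T. Both 4E-T libraries were well above both IgG libraries, and Sfrp4 rose by 1.38 (SE 0.25, limma adjusted p = 2.34e-06 with the block). Sfrp2, of the same family, had 4.85 and 7.54 FPKM in IgG and 7.73 and 16.9 in 4E-T. The log2 fold change of 0.82 (limma adjusted p = 0.00875 with the block) rested largely on 4E-T replicate 2, since it was 0.30 without that library and 0.55 without IgG replicate 1.

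Amer1, which recruits Apc to the plasma membrane, had 2.999 and 5.49 FPKM in IgG and 12.3 and 9.78 in 4E-T. It rose by 1.23 (limma adjusted p = 2.53e-05 with the block). Among the planar cell polarity genes, the Dishevelled-associated formin Daam2 had 4.75 and 7.77 FPKM in IgG and 15.3 and 17.0 in 4E-T, and rose by 1.27 (limma adjusted p = 2.62e-05 with the block). Daam1 rose by 0.71 (limma adjusted p = 0.0462 with the block), but by 0.35 without IgG replicate 1, and it missed the threshold in the read-based fit (0.48, limma adjusted p = 0.0937). Prickle1, a core polarity protein, rose by 0.90 (limma adjusted p = 0.0042 with the block), with a log2 fold change of 0.35 without IgG replicate 1 and 0.55 without 4E-T replicate 2.

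Tle2, a Groucho-family corepressor that binds TCF factors, had 6.50 and 4.87 FPKM in IgG and 12.9 and 9.84 in 4E-T, and rose by 0.89 (limma adjusted p = 0.00391 with the block). The ninth gene to rise, Tle3, lay outside the naming rule and was chosen after its values were seen. Its log2 fold change was 0.67, and 0.10 without IgG replicate 1 and 0.33 without 4E-T replicate 2. With the block 17.5% of all tested genes rose, and of 13 tested genes listed as β-catenin targets, members included, 1 did. This was Myc, with 5.43 and 11.0 FPKM in IgG and 31.8 and 39.8 in 4E-T (log2 fold change 2.06, limma adjusted p = 4.4e-11 with the block). The other 12, among them Axin2, Lef1, Rnf43 and Znrf3, missed the threshold.

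In the read-based fit 7 other pathway genes fell: Adgra2, Apcdd1, Rspo1, Tspan12, Vangl2, Ndp and Kremen1. That is 11.7% of those tested, near the 11% of all tested genes that fell in this fit. Adgra2, Tspan12 and Ndp are known from norrin and Wnt7 signalling to brain endothelium. Tspan12, which assists Fzd4, had 29.3 and 52.4 FPKM in IgG and 24.4 and 28.8 in 4E-T, and fell by 0.84 (SE 0.21, limma adjusted p = 0.000971). Adgra2, a co-activator of Wnt7 signalling, had 1.71 and 1.64 FPKM in IgG and 0.893 and 1.18 in 4E-T, and fell by 0.98 (limma adjusted p = 0.00413). Ndp, which encodes norrin, fell by 0.79 (limma adjusted p = 0.00769). In the same fit 4 of 5 endothelial markers fell, as did 3 of 4 mural, 2 of 3 choroid plexus and 2 of 4 ependymal markers. The summed FPKM in IgG and then in 4E-T was 54.1 and 62.9, then 30.4 and 53.4 for mural cells, 86.8 and 56.5, then 78.9 and 31.5 for choroid plexus, and 64.1 and 117, then 70.8 and 75.3 for ependymal cells. Also lower were 1 marker each of microglia, of neural stem cells and astroglia, and of the oligodendrocyte lineage. The part of these cell types in the values of the members and other pathway genes that fell was not tested. Vangl2, a core planar cell polarity protein, had 7.31 and 19.9 FPKM in IgG and 7.57 and 8.90 in 4E-T, where both 4E-T libraries lay between the IgG libraries. It fell by 0.81 (limma adjusted p = 0.00117), and on FPKM its log2 fold change was -0.52 (limma adjusted p = 0.143 with the block). Apcdd1, a membrane-bound Wnt inhibitor, fell by 0.91 (limma adjusted p = 0.000475), Rspo1, an R-spondin, by 0.84 (limma adjusted p = 0.0471) and Kremen1, a receptor for Dickkopf proteins, by 0.52 (limma adjusted p = 0.0495). None of these 7 passed on FPKM with the block.

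**Figure D4:**
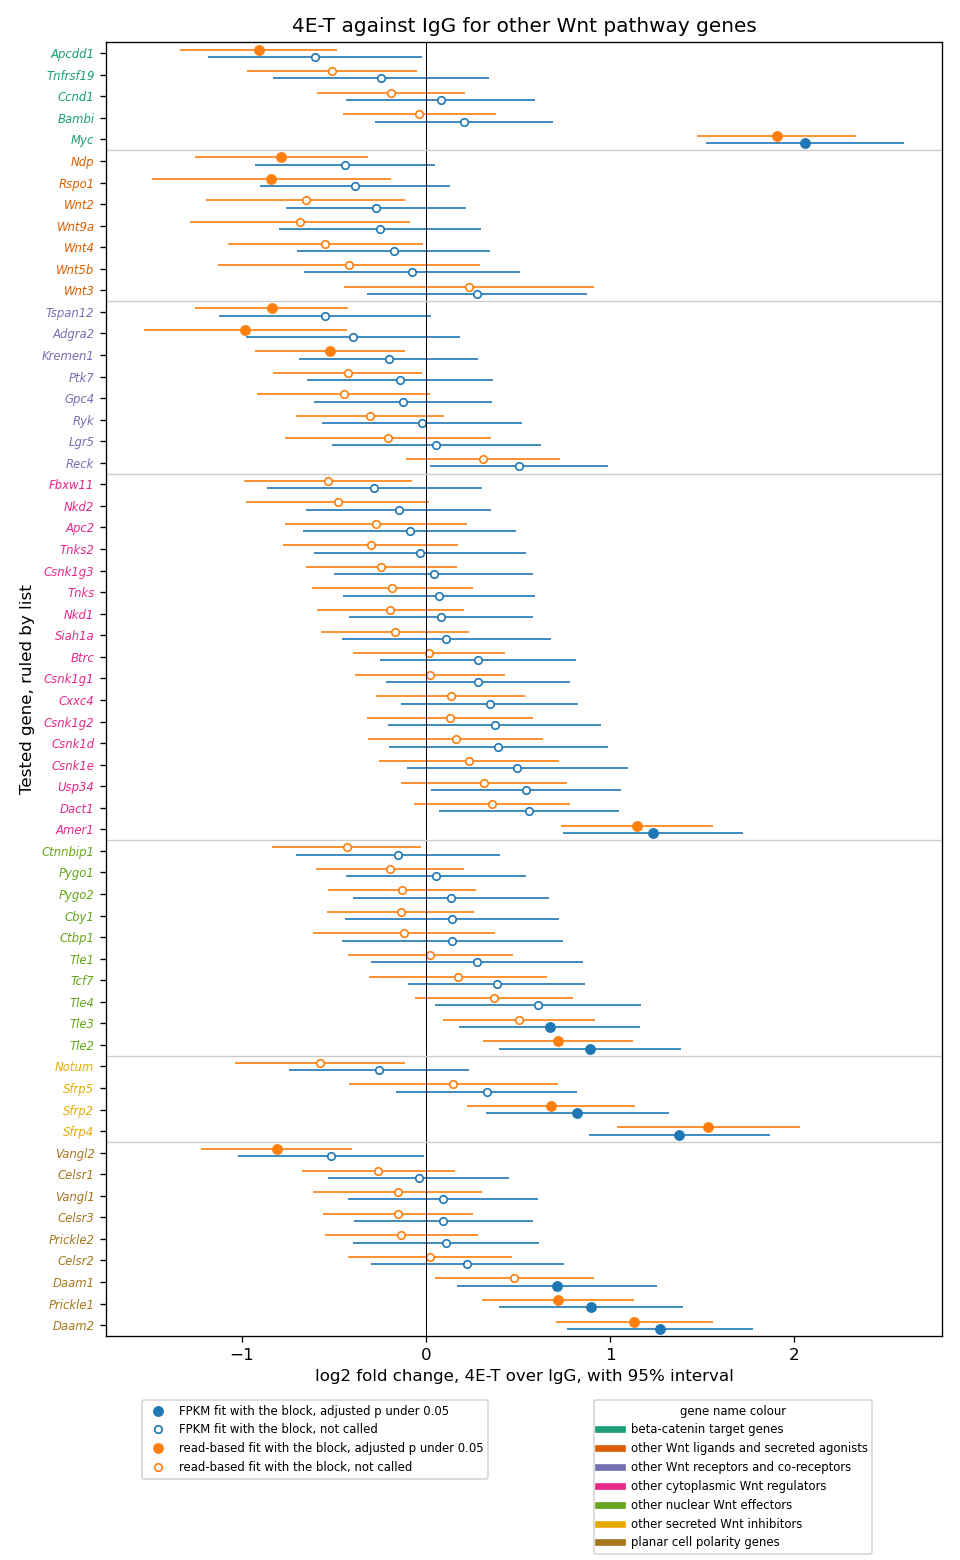
Log2 fold change of 4E-T over IgG with its 95% interval for the 60 tested other genes of the pathway, by list, from the FPKM fit with the block (blue) and from the blocked read-based fit (orange), filled where the adjusted p is under 0.05. In the FPKM fit 9 points are filled, all to the right, and in the read-based fit 7 are filled on each side.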

How the data were processed

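RNA precipitated with anti-4E-T or anti-IgG was sequenced. Per the labels' protocols, cDNA came from the SMART-Seq v4 kit and libraries from Nextera XT. The submitters' processing notes list the aligner STAR 2.6.0c, the counter HTSeq 0.6.1p2, the packages DESeq and DESeq2 1.26.0, the trimmer Trim Galore 0.5.0, the read check FastQC 0.11.5 and build mm10. Not given in the sources used here were the annotation release, the strand setting and the sum that scaled the FPKM. The authors deposited 1 table with FPKM per library. Per the file headers it also holds their comparison of 4E-T with IgG: a mean normalized signal, a log2 fold change, a Wald score, p-values and adjusted p-values, and a linear fold change. No per-sample column was left unmapped.

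Genes with a mean of at least 1 FPKM (17651) were tested on log2(FPKM + 1) with limma (3.58.1, R 4.3.3). Antibody was the only term, with trended and robust moderation, two-sided, and a Benjamini-Hochberg threshold of 0.05 over all tested genes. A pseudocount of 1 understates changes of low genes. The experiment numbers in the titles were taken as shared batches that pair the libraries, and same-numbered libraries deviated together (correlation 0.672 on FPKM, 0.491 after quantile normalization), so values with this replicate block are printed; that fit has 1 residual degree of freedom. Read counts were recovered from the deposited FPKM and mean signal, with 100% of values whole within 0.001, and tested with limma-voom after TMM scaling (trims 0.3 and 0.05). Tests were checked on simulated data in which libraries of the same experiment shared an effect. That check cannot judge the choice of the block or the unequal FPKM scales.

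The members, the lists and the tests were chosen with earlier results of these data known. Values in each library are given for members that pass a blocked fit on FPKM or recovered reads and for the 6 with the highest mean, and other members are given by value, range or count. Of the other pathway genes, up to 8 a direction are named. Alternatives were no filter, a minimum mean of 5 FPKM, a pseudocount of 0.1, quantile normalization, recovered reads, the block, and leaving out each library. Promoter windows and gene positions come from RefSeq (GRCm38.p6). With 2 libraries per group the number of libraries, more than read depth, limits the precision, and 95% intervals are those of the fits.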

Additional observations from a re-analysis of the deposited data

How the results depend on the processing

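With 2 libraries per group, every adjusted p rests largely on a spread borrowed across genes. FPKM of low genes such as Lrp5 and Rnf43 rest on few reads, and 4 members were too low to test. Under every alternative without a block that kept all 4 libraries, 0 members were called in either direction.

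The replicate block, whose numbers pair the libraries, gave 5 members higher and 0 lower on FPKM, 3 and 5 after quantile normalization, and 5 and 4 on recovered reads. For all genes, 1 higher and 0 lower without a block became 3090 and 784, 1843 and 1630, and 2400 and 1941 under the same 3 blocked fits. For the other pathway genes the 0 and 0 became 9 and 0, 5 and 8, and 7 and 7. A minimum mean of 5 FPKM gave 177 genes higher and 8 lower, with 1 other pathway gene higher, while no filter, quantile normalization or recovered reads without a block gave 0 genes higher. Leaving out a library gave 0 to 4 members higher and 0 lower, 2 to 2441 of all genes higher and 0 to 1094 lower, and 0 to 11 other pathway genes higher and 0 to 1 lower. The highest counts of members and of all genes came without IgG replicate 2. The median of the members minus that of all genes was -0.05, and it was 0.12 without a filter, -0.09 for a minimum of 5, -0.06 for a pseudocount of 0.1, -0.06 after quantile normalization, -0.09 and -0.08 on recovered reads without and with the block, and -0.28 to 0.14 with a library left out. The cause of these shifts was not tested.

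The log2 fold changes of Dvl1, Dvl2, Tcf7l1, Tcf7l2 and Bcl9 kept their direction under all alternatives run. Members near 0 reversed with scaling. After quantile normalization, with and without the block, they were -0.081 for Axin1, -0.059 for Csnk1a1, 0.072 for Lrp5, -0.17 for Wnt7a, -0.12 for Porcn, -0.062 for Sfrp1, -0.073 for Fzd1, 0.022 for Fzd4 and -0.23 for Fzd2. On recovered reads, without the block and then with it, they were -0.044 and -0.042 for Wnt7a, -0.28 and -0.27 for Fzd7, -0.032 and -0.030 for Znrf3, -0.14 and -0.15 for Fzd1, and -0.17 and -0.16 for Fzd2; Csnk1a1 was -0.0024 with the block.

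Leaving out a library also turned values over these ranges: Apc -0.30 to 1.03, Axin1 -0.32 to 0.93, Csnk1a1 -0.087 to 0.63, Gsk3a -0.56 to 0.55, Gsk3b -1.03 to 0.14, Ctnnb1 -0.96 to 0.58, Lef1 -0.62 to 0.12, Bcl9l -0.40 to 0.87, Wnt5a -0.50 to 0.071, Wnt7a -0.28 to 0.72, Wnt7b -0.84 to 0.42, Porcn -0.027 to 0.59, Sfrp1 -0.49 to 1.10, Dkk3 -0.86 to 0.63, Lrp5 -0.22 to 0.19, Lrp6 -0.44 to 0.36 and Znrf3 -0.080 to 0.50. For the Frizzled genes they were -0.45 to 0.71 for Fzd1, -0.58 to 0.77 for Fzd2, -0.66 to 0.37 for Fzd3, -0.24 to 0.19 for Fzd4, -0.40 to 0.45 for Fzd7, -0.19 to 0.88 for Fzd8 and -0.66 to 0.56 for Fzd9. Kremen1 ran from -0.56 to 0.16 and Vangl2 from -1.18 to 0.15.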
